A study of Homo with 2 samples.

Results

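Barcodes in which mitochondrially encoded transcripts made up more than 20% of the UMIs were examined in blastoids, embryo-like aggregates grown from the established human embryonic stem cell line KhES1. A UMI (unique molecular identifier) counts a single captured RNA molecule. The 140 members were chosen by 2 measured values, at least 1000 detected genes and over 20% of UMIs from genes of the MT- prefix, out of 2596 barcodes with at least 1000 genes and 4589 barcodes in all. They were set against the 2218 barcodes with at least 1000 genes and 2 to 20% mitochondrial UMIs, and the 238 barcodes under 2% were left out of that comparison.

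Both groups came from the same 2 droplet 3′ libraries of a single condition. Per the labels, dissociated KhES1 cells formed aggregates over 24 h in microwells, which then stayed 4 days in a PNIPAAm-based hydrogel. The medium was high-glucose DMEM containing 10% FBS (fetal bovine serum), with Y27632, an inhibitor of the kinase ROCK, at 10 µM. Every barcode of either group carries these treatments, and no untreated or undifferentiated sample was compared here. The labels name the libraries samples 1 and 2 without saying that they came from separate cultures, so p-values measure only the spread between these libraries, which may be technical. The files do not record whether a barcode held an intact cell, so the text speaks of barcodes.

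Mitochondria keep a small circular genome of their own, transcribed inside the organelle, which encodes core subunits of the respiratory chain and of ATP synthase. All other mitochondrial proteins are encoded in the nucleus, translated in the cytosol and imported. In droplet sequencing the mitochondrial share of a barcode is a ratio, so it depends on the number of mitochondrial molecules and on the number of nuclear-encoded molecules in the same droplet.

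The depth was 38665475 UMIs over 1988 barcodes in library 1 and 45208758 UMIs over 2601 barcodes in library 2. Every barcode had at least 200 genes, and 980 barcodes of library 1 and 1013 of library 2 had under 1000 genes, of which 123 and 72 were over 20% mitochondrial and were not counted as members. The libraries shared 1 barcode sequence, and none among barcodes of at least 1000 genes.

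Members made up 71 of the 1008 barcodes of at least 1000 genes in library 1, or 7.04% (exact 95% interval 5.54 to 8.80%). In library 2 they made up 69 of 1588, or 4.35% (3.40 to 5.47%). These intervals cover counting error only. The mitochondrial share of members ran from 20.02% over a median of 29.2% to 65.5% in library 1 and from 20.2% over 29.5% to 57.6% in library 2. The comparison barcodes had medians of 6.29% and 5.71%. The threshold cuts through a continuous range: the lowest members stood at 20.02% and 20.2%, and the highest barcodes below the threshold at 19.7% and 19.9%. Between 20 and 22% there were 7 members in library 1 and 12 in library 2, and between 18 and 20% there were 10 and 9 barcodes.

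Members and comparison barcodes held similar numbers of mitochondrial molecules and differed in the rest. The median mitochondrial UMIs per barcode were 2375 in members and 2443 in barcodes of 2 to 20% in library 1, a ratio of 0.972. In library 2 they were 2206 in members and 1816 in barcodes of 2 to 20%, a ratio of 1.21. Nuclear-encoded UMIs (all UMIs outside the MT- genes) had medians of 4783 in members and 34947 in the comparison barcodes of library 1, which were 7.31-fold deeper. The medians in library 2 were 4785 in members and 25265 in comparison barcodes, a 5.28-fold difference. Since both values enter the share that chose the members, they are descriptions with no test.

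**Figure D1:**
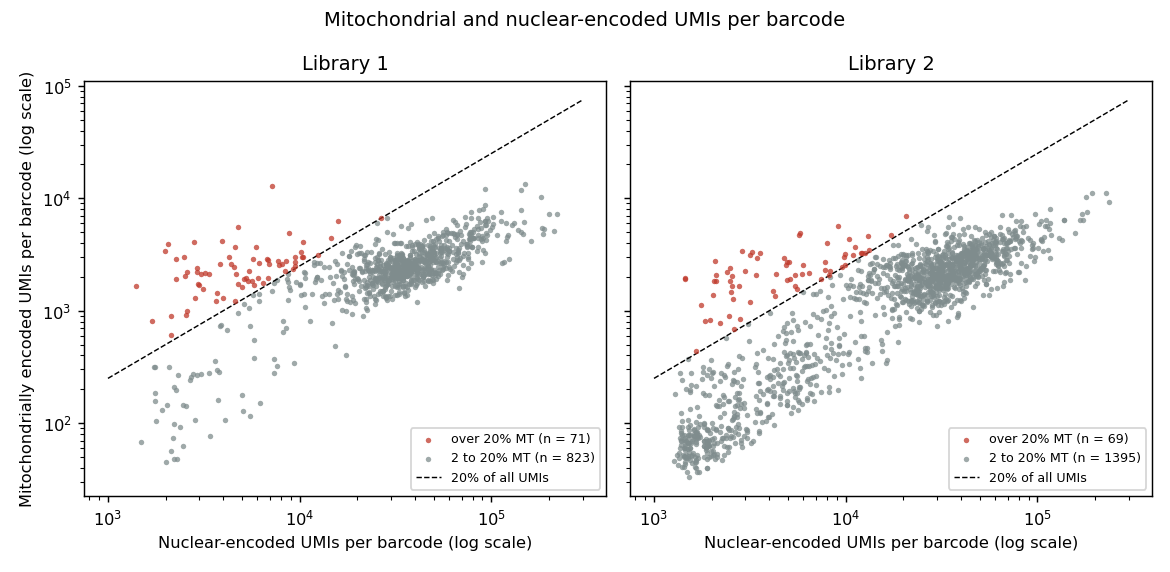
Mitochondrially encoded against nuclear-encoded UMIs per barcode, both on log axes, for each library; each point is a barcode of at least 1000 genes, red over 20% mitochondrial and grey 2 to 20%, and the dashed line is 20% of all UMIs. Members lie left of the main cloud of comparison barcodes, around 4783 and 4785 nuclear-encoded UMIs, at about the same height, around 2375 and 2206 mitochondrial UMIs. Comparison barcodes of 2000 to 8000 nuclear-encoded UMIs lie lower, with medians of 271 and 196 mitochondrial UMIs.

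The plot of mitochondrial against nuclear-encoded UMIs shows the same: members sit to the left of the main cloud and not above it. Library 2 also has a cloud of comparison barcodes that were shallow in both kinds of molecule, with a lower quartile of 342.5 mitochondrial UMIs, against 1879 in library 1. Members had a median of 2378 detected genes in library 1 and 2350 in library 2, against 7512 and 6551 in the comparison barcodes. Rarefied to 2000 nuclear-encoded UMIs, the median was 1316 genes in members and 1338 in comparison barcodes of library 1. In library 2 it was 1329 in members and 1342 in comparison barcodes. The ratios of members to comparison barcodes were 0.984 and 0.990. The rarefaction left out 3 and 6 members and 7 and 147 comparison barcodes as too shallow.

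The mix of mitochondrial transcripts was close to that of the comparison barcodes for the abundant mRNAs. MT-CO2, a subunit of cytochrome c oxidase, took 17.4% of mitochondrial UMIs in members of library 1 and 17.4% in library 2, against 18.2% and 18.1% in barcodes of 2 to 20%. MT-CO1, the catalytic subunit of the same enzyme, took 16.0% and 15.7% in members and 16.9% and 16.2% in comparison barcodes. MT-CYB, cytochrome b of complex III, took 10.8% and 11.8% in members and 11.01% and 11.8% in comparison barcodes. These oxidase and cytochrome shares stood within a ratio of 0.945 to 1.01 of the comparison barcodes.

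MT-ATP6, a subunit of ATP synthase, took larger shares in members of both libraries, 13.4% and 15.03%, against 12.3% and 13.3%. MT-CO3 took 15.9% and 17.1% in members and 15.4% and 15.3% in comparison barcodes. The largest ratio in both libraries was that of MT-ND6, a complex I subunit and the only mRNA encoded on the light strand of the mitochondrial genome. It took 0.333% and 0.258% in members against 0.228% and 0.190% in comparison barcodes, ratios of 1.46 and 1.36 over 636 and 441 UMIs in members. The remaining complex I mRNAs MT-ND1, MT-ND2, MT-ND3, MT-ND4, MT-ND4L and MT-ND5 gave ratios of 0.977 to 1.08 in library 1 and 0.692 to 1.05 in library 2. MT-ND4 and MT-ND5 were below 1 in both libraries, while MT-ND1, MT-ND2, MT-ND3 and MT-ND4L were on different sides of 1 in the libraries. MT-ATP8 and MT-ND4L overlap MT-ATP6 and MT-ND4 on the same transcripts, so the split of counts between them is uncertain.

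The nuclear-encoded molecules that members held were unlike those of the comparison barcodes. All shares below are of nuclear-encoded UMIs only, so the mitochondrial UMIs that chose the members are in neither part of the ratio. Cytosolic ribosomal protein genes, whose short mRNAs are among the most abundant of the cytosol, took a median of 2.43% per member in library 1 and 2.46% in library 2, against 15.9% and 16.5% in comparison barcodes. Genes spanning 100 kb or more on the genome took 54.1% and 54.9% in members, against 27.7% and 26.7%. Genes under 10 kb, without ribosomal protein genes, took 5.28% and 5.52% in members, against 16.8% and 17.2%.

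In molecules per barcode, every one of these classes was smaller in members, to unlike extents. The median number of ribosomal protein UMIs was 120 in members of library 1 and 5686 in comparison barcodes, a 47.4-fold difference. In library 2 it was 123 in members and 3692 in comparison barcodes, a 30.02-fold difference. UMIs of genes of 100 kb or more had medians of 2706 and 2021 in members, against 10338 and 7180, differences of 3.82-fold and 3.55-fold. MALAT1, a noncoding RNA kept in nuclear speckles, had medians of 34 and 39 UMIs in members against 626 and 303, differences of 18.4-fold and 7.77-fold. MALAT1 thus took a median of 0.743% and 0.963% of the nuclear-encoded UMIs in members, against 1.70% and 1.46%. Summed over barcodes, in place of the median, it was at 17328 and 16150 CPM (counts per 1000000 nuclear-encoded UMIs) in members and 17199 and 14591 in comparison barcodes. Single members reached MALAT1 shares of 15.2% and 14.2%, and single comparison barcodes 12.2% and 20.5%.

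The same difference was seen between barcodes of like depth. Among barcodes of 2000 to 8000 nuclear-encoded UMIs, 52 and 45 members were set beside 50 and 255 comparison barcodes, with median depths of 4334.5 and 3393 in members and 3744.5 and 3937 in comparison barcodes. Ribosomal protein genes took 2.502% and 2.14% in members and 14.2% and 16.5% in comparison barcodes. Genes of 100 kb or more took 54.7% and 56.0% in members and 28.3% and 26.4% in comparison barcodes. In this window members had medians of 2128.5 and 2074 mitochondrial UMIs, against 271 and 196. Comparison barcodes of library 1 were spread more widely there, with quartiles of 4.15% and 23.3% for the ribosomal protein share, against 13.9% and 18.5% in library 2.

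**Figure D2:**
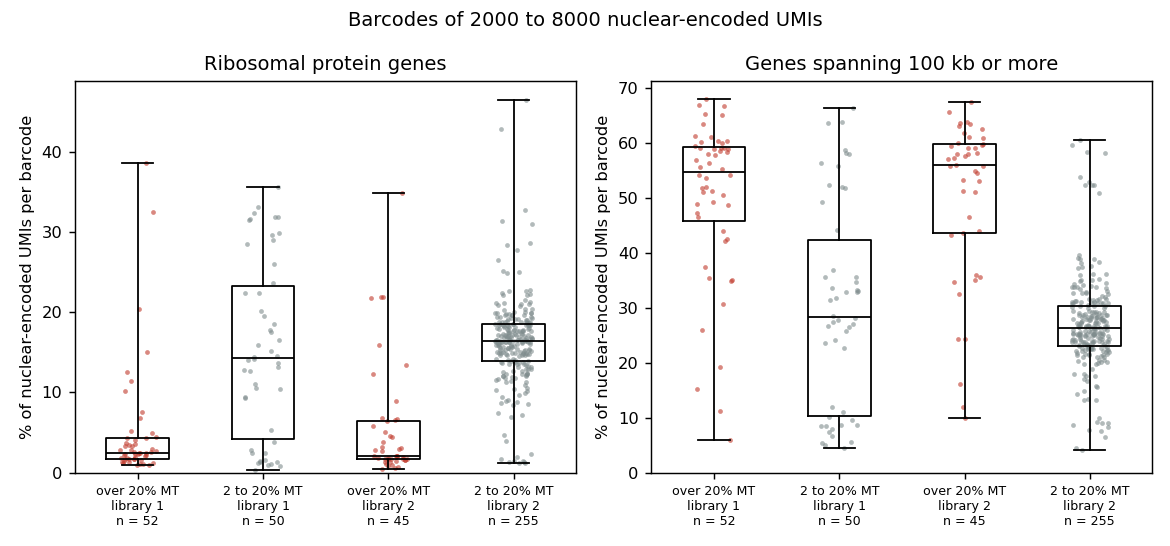
Share of nuclear-encoded UMIs from ribosomal protein genes (left) and from genes of 100 kb or more (right), in percent, in barcodes of 2000 to 8000 nuclear-encoded UMIs; each point is a barcode, boxes show quartiles and medians, whiskers the full range. Members of both libraries have median ribosomal protein shares of 2.502% and 2.14%, against 14.2% and 16.5% in barcodes of 2 to 20% mitochondrial UMIs.

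Members were not uniform. A ribosomal protein share under 10% was found in 61 of 71 members of library 1 (85.9%) and 56 of 69 of library 2 (81.2%), against 168 of 823 (20.4%) and 179 of 1395 (12.8%) comparison barcodes. The other 10 and 13 members reached shares of up to 38.6% and 34.8%, against highest shares of 35.6% and 46.5% among comparison barcodes. Within members the ribosomal protein share and the share of long genes ran against each other, with a Spearman rho of -0.67 over 71 barcodes and -0.66 over 69. Both are shares of the same total, so part of that relation is arithmetic. The mitochondrial share itself had a rho of only 0.23 and 0.070 with the ribosomal protein share among members.

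Across the whole range of mitochondrial shares the change did not begin at 20%, and the libraries differed in where it began. In library 1 the median ribosomal protein share was 16.7% in 202 barcodes of 2 to 5% mitochondrial UMIs and 16.2% in 513 of 5 to 10%. It was already 2.51% in 108 barcodes of 10 to 20%, beside 2.18% in 38 of 20 to 30%, 2.48% in 24 of 30 to 50% and 3.35% in 9 over 50%. In library 2 the successive values were 16.7, 17.1, 9.66, 1.76, 2.71 and 2.93%, over 539, 669, 187, 36, 28 and 5 barcodes. The share of genes of 100 kb or more in library 1 was 25.6, 27.5, 51.8, 54.9, 55.5 and 51.9% over the same bins. In library 2 it was 25.7, 26.6, 36.7, 52.3, 56.8 and 57.3%. In library 1 the medians of both shares at 10 to 20% were thus close to those of members, while in library 2 they stood between the groups. The summed ribosomal protein share in library 1 was 6.90% at 10 to 20% and 4.30% at 20 to 30%.

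**Figure D3:**
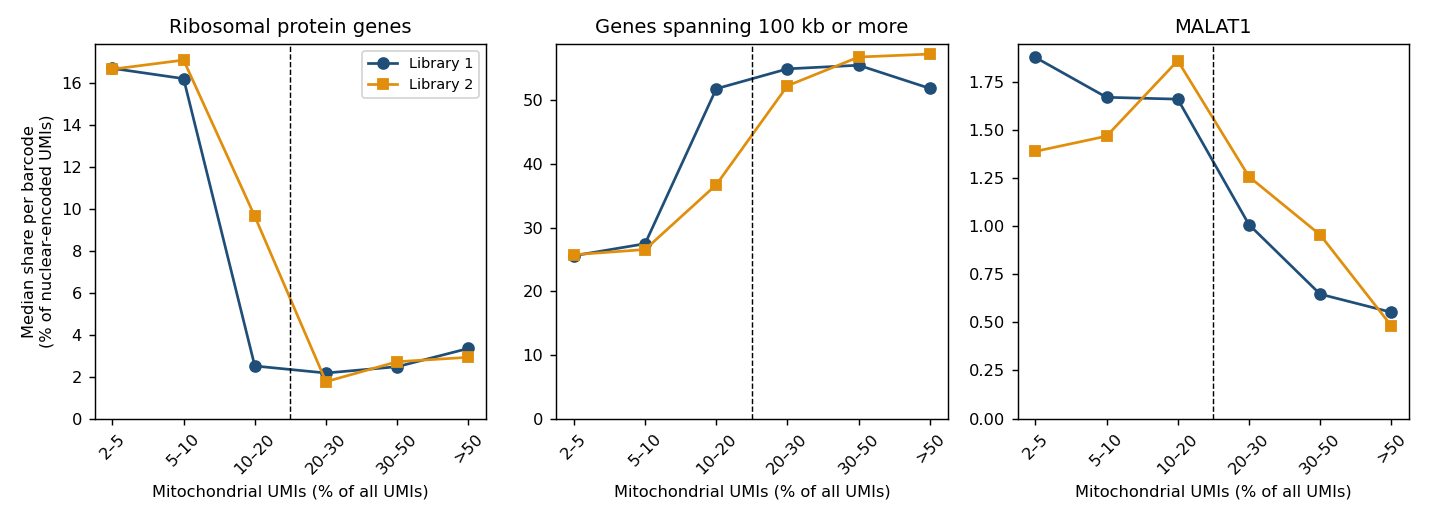
Median share of nuclear-encoded UMIs, in percent, from ribosomal protein genes, from genes of 100 kb or more and from MALAT1, by mitochondrial share of the barcode, for libraries 1 and 2; the dashed line marks the 20% threshold. The ribosomal protein share is 2.51% in library 1 and 9.66% in library 2 already at 10 to 20%.

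The plot of medians by mitochondrial share also shows MALAT1, whose median share per barcode was 1.66% and 1.86% at 10 to 20%, 1.01% and 1.26% at 20 to 30%, 0.646% and 0.955% at 30 to 50% and 0.552% and 0.482% over 50%. Unlike the ribosomal protein share, it was still at the level of the comparison barcodes at 10 to 20% and was smaller at each later step in both libraries.

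Genes were then tested one by one on UMIs summed per library and group, with edgeR's quasi-likelihood test and the library as a block. Of 18337 nuclear-encoded genes tested, 785 were higher (4.28%) and 2315 lower (12.6%) in members at an adjusted p under 0.05, and 3097 of the 3100 had the same direction in both libraries. The median log2 fold change over all genes tested was -0.17. Among the 5182 genes of at least 50 CPM in either group, 14.2% were higher and 29.4% lower, with a median of 0.05. Members gave 414842 and 395180 nuclear-encoded UMIs in all, against 33860705 and 39848333 in comparison barcodes, so the median gene tested had 11 UMIs in members and 1378 genes had 0. At such counts the lack of a call does not show that a gene did not change.

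The scaling matters to the direction of genes that changed little. TMM normalization lowers each log2 fold change by 0.37 in library 1 and 0.36 in library 2 relative to the plain ratio of the CPM printed here. Without it 2066 genes were higher and 1619 lower, so that 56.1% of the calls were rises, against 25.3% with TMM. With DESeq2 size factors in the same edgeR fit, 979 were higher and 1976 lower, 33.1% rises. All changes below are relative to the TMM scale. Counts of calls within a list are to be read beside the shares over all genes tested, 4.28% higher and 12.6% lower.

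**Figure D4:**
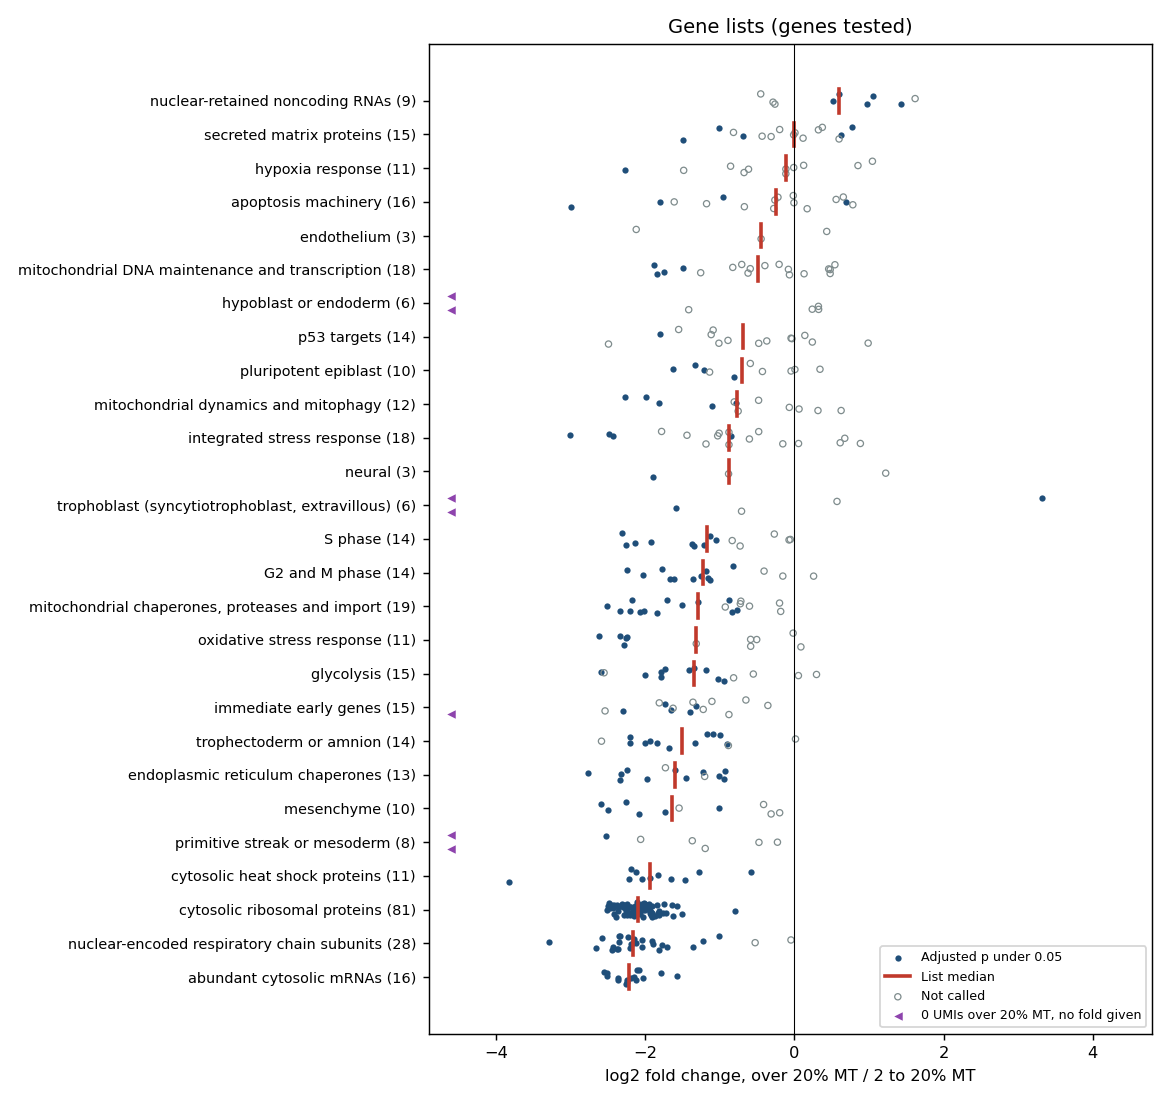
log2 fold change of each tested gene, barcodes over 20% mitochondrial UMIs over barcodes of 2 to 20%, by gene list with the number tested in brackets; filled points have an edgeR adjusted p under 0.05, open points do not, red bars are list medians, and purple triangles are genes with 0 UMIs in members, for which no fold or list median is drawn. The ribosomal protein, abundant cytosolic and nuclear-encoded respiratory chain lists lie near -2, and the list of nuclear-retained noncoding RNAs has the highest median, 0.60.

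Nuclear genes for the mitochondrion are given per nuclear-encoded UMI, as all CPM values here. Of 28 nuclear-encoded respiratory chain subunits, 26 fell and none rose, with a median log2 fold change of -2.16. ATP5MC3, which encodes the membrane ring subunit of ATP synthase, was at 36.2 and 55.7 CPM in members and 315 and 378 in comparison barcodes. Its log2 fold change was -3.29 ± 0.21 (SE, edgeR adjusted p = 7.30e-05). NDUFA4 was at 147 and 127 CPM in members, against 630 and 717. COX6C, a cytochrome c oxidase subunit, was at 53.04 and 96.2 CPM in members and 294 and 332 in comparison barcodes. These 3 genes were named for the size of their change, and their CPM are of sums over barcodes. The exceptions among the 28 were 2 subunits of succinate dehydrogenase (complex II), SDHA and SDHB, which did not pass the test. SDHA was at 45.8 and 35.4 CPM against 32.2 and 32.9, and SDHB at 36.2 and 55.7 against 50.4 and 51.7.

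Genes that maintain and transcribe mitochondrial DNA gave 4 falls and no rise among 18, with a median of -0.49, where 12.6% of all genes tested were lower. TFAM, which packages the mitochondrial genome and starts its transcription, fell to 41.0 and 25.3 CPM in members, against 72.3 and 72.9 (log2 fold change -1.49 ± 0.26, edgeR adjusted p = 0.00399). Against comparison barcodes matched on depth TFAM was at -0.91 and was not called (adjusted p = 0.101), nor was it within the trophectoderm or amnion-like clusters (adjusted p = 0.0650). SSBP1, SLIRP and TEFM fell as well, with log2 fold changes of -1.88, -1.84 and -1.75. POLRMT, the mitochondrial RNA polymerase, was at 19.3 and 17.7 CPM against 9.7 and 10.0, and LRPPRC, which stabilises mitochondrial mRNAs together with SLIRP, at 186 and 210 against 183 and 171. Neither passed the test. The regulators PPARGC1A and NRF1 did not pass it either, with log2 fold changes of -0.08 and 0.48.

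Among mitochondrial chaperones, proteases and import factors 13 of 19 fell and none rose, with a median of -1.28. HSPD1 and HSPE1, the folding chaperonin of the matrix and its lid, had log2 fold changes of -1.496 and -2.33. TOMM22 and TOMM7 of the import pore of the outer membrane had log2 fold changes of -2.51 and -2.17. Among genes of mitochondrial dynamics and mitophagy 5 of 12 fell, with a median of -0.77: BNIP3, FUNDC1, FIS1, SQSTM1 and MFF. The fusion genes MFN1, MFN2 and OPA1 did not pass the test.

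Abundant cytosolic mRNAs fell together. All 81 ribosomal protein genes fell, with log2 fold changes from -2.51 for RPS4X to -0.80 for RPL7L1 and a median of -2.09. Many of these genes have near-identical processed copies in the genome, so their single values are less certain than their sum, which was 42082 and 54619 CPM in members and 152738 and 164148 in comparison barcodes. All 16 other abundant cytosolic mRNAs fell too, with a median of -2.21. ACTB, cytoplasmic actin, was at 523 and 567 CPM in members and 1912 and 1855 in comparison barcodes. FTL, the ferritin light chain, was at 511 and 724 CPM against 2651 and 2735. All 11 cytosolic heat shock genes fell, with a median of -1.93, and 11 of 13 endoplasmic reticulum chaperones fell, with a median of -1.60.

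Of 9 nuclear-retained noncoding RNAs 5 were higher and none lower, with a median of 0.60. Over all genes tested 4.28% were higher, and 14.2% of those of at least 50 CPM. Rises were more frequent among long noncoding RNA genes of at least 50 CPM in either group. That filter admits genes through their level in members alone, which favours rises. Shares with the filter on comparison barcodes only were not computed for them. Rises made up 14.8% of 27 such genes under 10 kb, where 48.1% fell. They made up 18.2% of 22 spanning 10 to 30 kb, 29.4% of 34 of 30 to 100 kb and 51.4% of 37 of 100 to 300 kb. KCNQ1OT1, the antisense RNA of the imprinted KCNQ1 domain, was at 388 and 359 CPM in members and 145 and 135 in comparison barcodes (log2 fold change 1.05 ± 0.14, edgeR adjusted p = 0.000824). No member held more than 11.8% of its UMIs in either library. NEAT1, the scaffold of nuclear paraspeckles, was at 2252 and 1114 CPM in members and 675 and 593 in comparison barcodes (0.97 ± 0.20, edgeR adjusted p = 0.00957). A single barcode held 39.0% of the NEAT1 UMIs of members in library 1. Without the top barcode of each sum the NEAT1 log2 fold change was 0.89 and stayed past the threshold. Among barcodes of at least 2000 genes it was 0.47 and was not called. PVT1 was at 207 and 182 CPM against 57.1 and 55.4 (1.43 ± 0.16), with 51.2% and 41.7% of its UMIs in 1 barcode each. The PVT1 value was 0.89, still called, without those barcodes and 0.21, not called, with the threshold at 25%. FTX and SNHG14 rose by 0.60 and 0.52 on the log2 scale. MALAT1, OIP5-AS1, TUG1 and MIAT did not pass the test.

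Among the stress, p53 and apoptosis genes BCL2 alone rose, where 4.28% of all genes tested were higher. Among genes of at least 50 CPM, as BCL2 is, 14.2% were higher. None of 18 integrated stress response genes rose and 4 fell, where 12.6% of all genes tested were lower. CHAC1 and TRIB3 had at most 5.1 CPM in any sum, and DDIT3 was at 4.8 and 2.5 CPM in members against 11.1 and 8.6. Of 14 p53 targets only BAX passed the test, at 24.1 and 32.9 CPM in members and 71.5 and 82.9 in comparison barcodes, and it fell. CDKN1A was at 0.0 and 5.1 CPM against 3.6 and 3.5. Of 16 apoptosis genes BCL2, an inhibitor of cell death, rose (113 and 132 CPM against 59.2 and 58.5, log2 fold change 0.69). BAX and CYCS were among the 3 that fell. CYCS encodes cytochrome c, the electron carrier whose release from mitochondria starts apoptosis, and was at 21.7 and 20.2 CPM in members against 119 and 141. The median of the apoptosis list was -0.24, and it was 0.12 without normalization factors.

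No immediate early gene rose and 5 of 15 fell, among them JUN at 33.8 and 50.6 CPM against 109 and 108. Over all genes tested 4.28% were higher and 12.6% lower, and at 50 CPM or more 14.2% and 29.4%. Among 11 oxidative stress genes 5 fell and none rose, with TXN, SOD1, PRDX1, PRDX3 and NQO1 the fallers and HMOX1, GCLM and TXNRD1 not passing the test. Of 15 glycolysis genes 10 fell, with a median of -1.35. LDHA was at 16.9 and 30.4 CPM in members against 99.6 and 120. Hypoxia genes gave 1 call among 11, the fall of BNIP3. Cell cycle lists gave 9 falls of 14 for S phase and 11 of 14 for G2 and M phase, with medians of -1.17 and -1.22. MKI67 was at 55.5 and 88.6 CPM in members and 98.7 and 97.3 in comparison barcodes, a log2 fold change of -0.82.

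Secreted matrix proteins had a median of -0.01, which was 0.35 without normalization factors. SPARC, COL3A1 and FN1 fell by 1.49, 1.00 and 0.69 on the log2 scale. VCAN and FBN2 rose by 0.63 and 0.78. FBN2 was no longer called without the top barcode of each sum (0.53, edgeR adjusted p = 0.148). The 10 other matrix genes did not pass the test.

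The changes were ordered by the length of the gene on the genome. Of the 5182 genes of at least 50 CPM in either group, 5079 (98.0%) had a RefSeq span on GRCh38.p14. Across them Spearman's rho between span and log2 fold change was 0.79, and 0.77 within each library. The points are genes of the same 4 sums, not independent replicates, and rho is given as a description. Among 4856 protein-coding genes without ribosomal protein genes it was 0.81. A gene could enter through its level in members alone, which favours rises. Among the 4215 genes of at least 50 CPM in comparison barcodes, a choice made after seeing the data, rho was 0.86, and the medians ran from -2.05 under 10 kb to 0.67 over 300 kb.

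Under 10 kb, 584 of 618 genes fell and 7 rose, with a median log2 fold change of -2.04. From 10 to 30 kb 557 of 785 fell and 7 rose, with a median of -1.31. From 30 to 100 kb the median was -0.04, with 351 falls and 53 rises among 1767 genes. From 100 to 300 kb it was 0.37, with 318 rises and 23 falls among 1421. Over 300 kb it was 0.69, with 313 rises among 488 genes and a single fall, that of the calpain inhibitor gene CAST. The span at which the medians come to 0, here about that of the 30 to 100 kb group, depends on the scaling, which shifts all genes alike. The order does not.

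**Figure D5:**
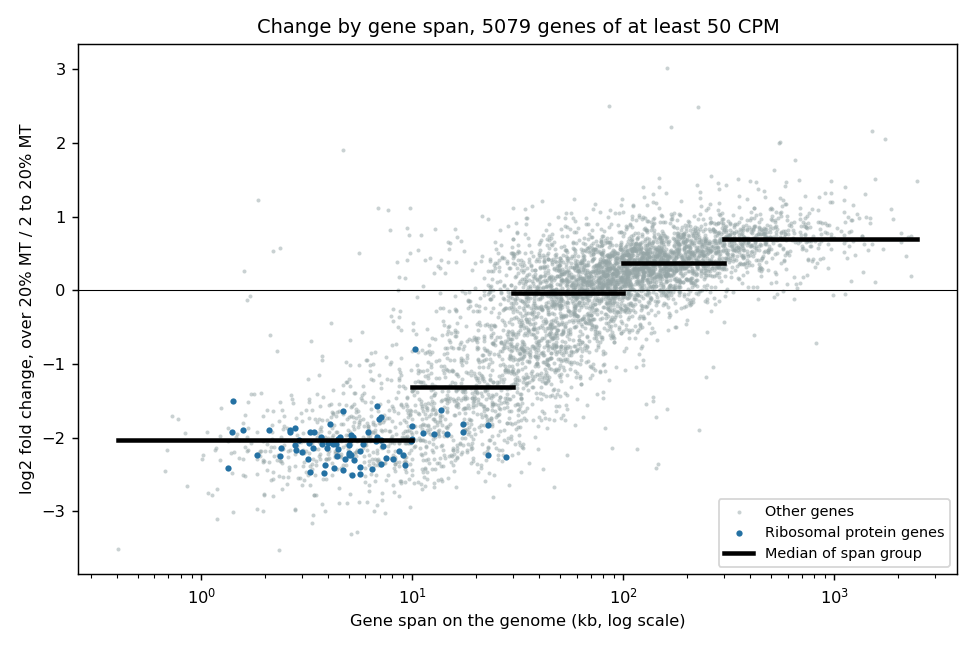
log2 fold change, barcodes over 20% mitochondrial UMIs over barcodes of 2 to 20%, against gene span in kb (log axis), for 5079 genes of at least 50 CPM; blue points are ribosomal protein genes and black bars the medians of 5 span groups. The medians run from -2.04 under 10 kb to 0.69 over 300 kb.

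The order of the 5 span groups was the same in library 1 (-2.16 to 0.65) and library 2 (-1.97 to 0.67). It was the same against comparison barcodes matched on depth (-1.44 to 0.57) and within cluster 2 (-2.74 to 0.71), the cluster with the most members. Long noncoding RNA genes followed it at a higher level, from -0.45 for 27 genes under 10 kb to 0.86 for 12 over 300 kb. The lists named above differ in span as well. The median span was 3.48 kb for abundant cytosolic mRNAs, 5.04 kb for ribosomal protein genes, 7.81 kb for respiratory chain subunits, 30.6 kb for nuclear-retained noncoding RNAs and 79.4 kb for secreted matrix proteins. How far a list's median departs from genes of its own span was not tested.

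The 7 genes under 10 kb that rose were GNGT1, MIR17HG, PCAT1, PILRB, POLR2J3, SLC16A1-AS1 and XACT, of which MIR17HG, PCAT1, SLC16A1-AS1 and XACT are noncoding RNA genes. They and CAST were singled out after their values were seen. GNGT1, MIR17HG, PILRB and SLC16A1-AS1 were under 50 CPM in comparison barcodes. They entered through their level in members alone, which favours rises. Among 606 genes under 10 kb with at least 50 CPM in comparison barcodes, 3 rose. XACT, a noncoding RNA that coats active X chromosomes in human pluripotent cells, was at 670 and 1402 CPM in members and 319 and 335 in comparison barcodes (log2 fold change 1.23 ± 0.22, edgeR adjusted p = 0.00455), with 29.1% and 36.3% of its UMIs in 1 barcode each. RefSeq gives XACT 1.85 kb at chrX:113616300-113618153. The sources used here do not state whether the counting annotation held longer models for these genes.

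The most abundant genes that rose, picked after their values were seen, were TMTC2, PDE3A, KIF26B, SDK1, TCF4, AUTS2, ADGRL2 and UNC5C, with spans of 320 to 1195 kb. TMTC2 (chr12:82686906-83134866) was at 3424 and 2329 CPM in members and 1282 and 1201 in comparison barcodes, a log2 fold change of 0.83 ± 0.18 (edgeR adjusted p = 0.0110). PDE3A (chr12:20368537-20688583), a cyclic nucleotide phosphodiesterase, was at 3108 and 2615 CPM against 1207 and 1149, a log2 fold change of 0.91 ± 0.16 (edgeR adjusted p = 0.00420). TMTC2 was found in 63 of 71 and 61 of 69 members, and no member held more than 7.82% of its UMIs. PDE3A was found in 56 of 71 and 63 of 69 members. These CPM are of sums over barcodes, and members without a UMI of either gene are part of them.

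The largest rises by log2 fold change were of another kind, since several rested on single barcodes. The 12 had values from 2.48 for GNA14 to 1.504 for DAB1, and NECAB1, ROBO2, SYN3, GNGT1, CSMD2, STXBP5L, STK33, ST6GAL1 and CHODL were among them. Of these named genes all but GNGT1 span at least 148 kb. GNA14 (chr9:77423079-77648322), a G protein alpha subunit, was at 50.6 and 268 CPM in members and 18.6 and 19.9 in comparison barcodes, a log2 fold change of 2.48 ± 0.45 (edgeR adjusted p = 0.00474). A single barcode held 52.4% of these UMIs in library 1 and another 86.8% in library 2, and only 10 members of each library had any.

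Without the barcode with the most UMIs of each gene in each sum, 8 of the 12 rises were still called. GNA14, NECAB1 and SYN3 were among those no longer called, with log2 fold changes of 0.67, 0.83 and 1.36. ROBO2, an axon guidance receptor, was then at 1.19, against 2.06 with all barcodes. ROBO2 was not called with the threshold at 25% (0.65, adjusted p = 0.146) or within the trophectoderm or amnion-like clusters (0.69, adjusted p = 0.180). STXBP5L was not called at 25% (1.19), within those clusters (0.38) or within cluster 2 (1.34), and CSMD2 was not called within those clusters (1.17). DAB1, an adaptor of the reelin pathway, was found in 24 and 21 members, at 219 and 301 CPM against 74.1 and 67.9. Its log2 fold change was 1.504 ± 0.18 (edgeR adjusted p = 0.000438), and 1.28 without the top barcodes. DAB1 was not called within cluster 2 alone (0.49, adjusted p = 0.261) or within the trophectoderm or amnion-like clusters described below (0.97, adjusted p = 0.116).

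The 12 largest falls were all genes of under 10 kb: CIAO2B, H4C3, EMC4, ATP5MC3, ATP6V0B, OST4, POLR2K, SELENOK, NOP10, TIMM8B, TUBB2A and CYCS. All were still called without the top barcodes. That step takes a larger part of the few UMIs in members than of the comparison sums, so it cannot test a fall. CIAO2B, of the cytosolic iron-sulfur assembly machinery, was at 2.41 and 15.2 CPM in members and 71.4 and 83.2 in comparison barcodes, a log2 fold change of -3.53 ± 0.41 (edgeR adjusted p = 0.000364). This rests on 1 and 6 UMIs in members. H4C3, a histone H4 gene with near-identical family members, was at 26.5 and 63.3 CPM against 416 and 375 (-3.51 ± 0.28, edgeR adjusted p = 7.52e-05). OST4, a small subunit of oligosaccharyltransferase (chr2:27070472-27071654), was at 48.2 and 48.1 CPM against 306 and 336 (-3.10 ± 0.20, edgeR adjusted p = 7.30e-05). TIMM8B, a chaperone of the mitochondrial intermembrane space, was at 16.9 and 20.2 CPM against 106 and 125. TUBB2A has a close paralog, so its counts are less certain.

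Markers of the cell types of the aggregates were found in members, mostly at smaller CPM. Trophectoderm or amnion markers summed to 1668 and 1951 CPM in members and 3913 and 3964 in comparison barcodes, and 11 of 14 fell, with a median of -1.505. HAND1 was at 62.7 and 111 CPM against 300 and 318, a log2 fold change of -2.21. GATA3, a transcription factor of trophectoderm and amnion, was at 109 and 116 CPM against 172 and 154, a log2 fold change of -0.90. VTCN1 was at 352 and 294 CPM against 245 and 251, a log2 fold change of 0.02, and did not pass the test. The median span of this list was 12.5 kb.

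Pluripotent epiblast markers summed to 516 and 762 CPM in members and 837 and 931 in comparison barcodes, and 4 of 10 fell: POU5F1, LIN28A, L1TD1 and MIR302CHG. POU5F1 was at 36.2 and 81.0 CPM against 84.0 and 122, a log2 fold change of -1.20, and -0.09, not called, against comparison barcodes matched on depth. MIR302CHG, at -1.63, came to 0.00 against these matched barcodes. SOX2 was at 4.8 and 38.0 CPM against 10.4 and 13.7 and did not pass the test.

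Mesenchyme markers gave 6 falls of 10, LUM, DCN, VIM, THY1, SNAI2 and COL3A1. Of 8 primitive streak or mesoderm markers tested, MIXL1 and EOMES fell, both with 0 UMIs in members of library 2, and EOMES with 0 in library 1 too. Of 6 hypoblast or endoderm markers tested none was called. SOX17 and CER1 had 0 UMIs in members, which over both libraries allows up to 3.70 CPM, while the comparison barcodes had at most 4.5 CPM in either library. In trophoblast markers ERVW-1 was called higher on 21 UMIs of 1 barcode of library 1, with 0 UMIs in members of library 2, and MMP2 fell. HLA-G and SDC1 had 0 UMIs in members. Blood and endothelium markers gave no call among 1 and 3 tested. Among the neural markers TUBB3 fell and DCX and STMN2 did not pass the test. The part of a different mix of cell types in the changes above was not tested beyond the within-cluster values.

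MT genes, ribosomal protein genes and genes of the lists other than cell type markers were left out of a clustering of all barcodes of both groups. Cell type markers stayed in unless such a list held them too, so clusters were named from genes that could shape them. This clustering gave 10 clusters and did not set the members apart. Members fell into 6 of them and were a minority in each. Cluster 2, led by PCDH9, ADAMTS20 and STMN2 and left unnamed, held 32 members of each library among 907 barcodes (7.06%). The trophectoderm or amnion-like clusters were 0, 1, 3 and 5. Clusters 0, 1 and 5 held 25, 16 and 5 members (6.67%, 3.53% and 4.67%). Cluster 3 held none among 36 barcodes, which were still comparison barcodes in the values within these clusters. Clusters 0, 1 and 3 were named from the level of the marker list, with 13, 12 and 13 of its 14 markers at 10 CPM or more. None was among their 10 leading genes. Those leading genes included the cell cycle genes PTTG1, CCNB2 and CDC20 in cluster 0 and TOP2A, UBE2C and NDC80 in cluster 1. Cluster 5 had 1 marker, GATA2, among its 10. Cluster 2 also had 13 of the markers at 10 CPM or more, and was left unnamed because STMN2, a neural marker, was among its leading genes. The epiblast-like cluster 6 held 12 of 131 (9.16%), and the shallow unnamed cluster 4 held 18 of 266 (6.77%). Clusters 7, 8 and 9 held none among 64, 8 and 11 barcodes. Genes differed between the groups that also shaped the clusters, so these shares are a description.

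Within cluster 2 alone edgeR called 734 genes higher and 2184 lower, of which 513 and 1907 were called in the same direction over all barcodes. Within the trophectoderm or amnion-like clusters, with 25 and 21 members, 123 were higher and 1143 lower, 108 and 1121 of them shared with the calls over all barcodes. Against comparison barcodes matched on depth, 450 were higher and 1157 lower among 10156 genes tested. The matching reached a median of 4755 nuclear-encoded UMIs in library 2, beside 4785 in members, but only 16478 in library 1, beside 4783.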

How the data were processed

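Summed counts of the groups were compared in single-cell RNA sequencing of 2 libraries. The deposited tables hold raw UMI counts per gene and barcode. They were made with Cell Ranger 9.0.0 on GRCh38, per the submitters' processing notes, from droplet 3′ libraries, per the labels' protocols. The sources used here do not state which step left only barcodes of at least 200 genes and genes in at least 2 barcodes. Members, gene lists and tests were chosen with earlier results of these data known.

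The 25556 genes present in both tables, of 28363, were used. Counts outside the 13 MT- genes were summed per library and group and tested with edgeR 4.0.16 (R 4.3.3) by its quasi-likelihood test. The fit used TMM normalization, the filterByExpr filter and a term for the library, and p-values were adjusted over all genes tested by Benjamini-Hochberg, at a threshold of 0.05. The 4 sums leave 1 residual degree of freedom, and the spread is moderated across genes. Standard errors (SE) were taken as the absolute log2 fold change over the root of the F statistic. CPM are counts per 1000000 nuclear-encoded UMIs. The library pairs the groups by construction, since both groups come from each library. Barcodes are not replicates.

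On simulated counts (17837 genes tested, changed genes at 50 CPM or more) the fit called 62 of 93 genes given a 2-fold change and 107 of 107 given a 4-fold change. False calls numbered 2, and 0 calls had the wrong sign. These counts were drawn with a lone dispersion value of 0.0152. Only the 93 and 107 genes were changed in them, whereas 3100 genes were called in the data. The median gene tested in the data had 11 UMIs in members, and recovery of changed genes below 50 CPM was not simulated. The rates thus describe the simulated counts and are not error rates or power for the calls reported here.

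The naming rule took the 12 top rises and the 12 top falls by log2 fold change among called genes that moved alike in both libraries, had a symbol and reached 50 CPM in the higher group. It added up to 4 genes of each list by size of change, at 10 CPM or more. Of 121 genes so named 100 passed the test; further list members are named with their values, chosen after these were seen. Some genes that the rule or the lists name are not reported here. Gene spans and coordinates are from RefSeq on GRCh38.p14.

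Gene number was rarefied exactly to 2000 nuclear-encoded UMIs. Clusters came from scanpy 1.11.5 (2000 variable genes, 30 principal components, 15 neighbours, Leiden at resolution 0.5, igraph 0.11.9), named from marker lists. Scrublet called 2 doublets in library 1 and 0 in library 2, too few to show that it worked; none were members, and all were kept.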

Additional observations from a re-analysis of the deposited data

How the results depend on the processing

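Calls were recomputed under 17 alternatives, of which 4 were chosen after seeing the data: comparison barcodes of at least 10000 nuclear-encoded UMIs, cluster 2 alone, the top barcode of each gene left out, and no normalization factors. Against 785 genes higher and 2315 lower, more genes were higher without normalization factors (2066), with no replicate block (1296), with the threshold at 15% (1237) and without top barcodes (1201). Fewer were higher with the threshold at 25% (357), among barcodes of at least 2000 genes (420), against comparison barcodes matched on depth (450, with 1157 lower) and within trophectoderm or amnion-like clusters (123, with 1143 lower). The cause was not tested, although matching and clusters use fewer barcodes and genes. The other alternatives stayed within 1.5 times the reported counts. Pairing is by library: both groups come from each library, and the fit with no replicate block gave 1296 higher and 2885 lower.

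The ratio of median nuclear-encoded UMIs, 0.163 as the mean of the libraries, was 0.209 among barcodes of at least 2000 genes and 0.137 to 0.189 in single libraries. The ratio of rarefied gene number was 0.987, 1.01 among barcodes of at least 2000 genes and 0.984 to 0.990 in single libraries. Members were 5.69% ± 1.91 of barcodes (SD, n = 2), 4.35 to 7.04% in single libraries.

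Among named genes direction reversed for NECAB1 within trophectoderm or amnion-like clusters (-9.04, a fitted value of a gene with few UMIs) and within cluster 2 (-1.39), for MIR302CHG against comparison barcodes matched on depth (0.000153), for MIXL1 within cluster 2 (0.0334) and for ERVW-1 without replicate 1 (-0.82, and 3.40 without replicate 2). Of the 121 named genes, 100 were called as reported. Of these, 36 were no longer called within trophectoderm or amnion-like clusters, 24 with the threshold at 25%, 20 within cluster 2 and 14 against comparison barcodes matched on depth. Genes that reversed or were not tested under an alternative are not in these counts. The median of secreted matrix proteins was above 0 under 6 alternatives (0.012 to 0.35) and that of p53 targets without replicate 1 (0.058). Apoptosis genes changed sign without normalization factors (0.12), and hypoxia genes with that change (0.25) and with barcodes under 2% added to the fit (0.016). The hypoblast list, where genes with 0 UMIs weigh, changed sign under 8 alternatives (0.027 to 0.45), the blood list under 4 (-0.35 to -0.011) and the endothelium list under 3 (0.084 to 0.72). No other list of the 28 changed sign. Depth limits all values in members, whose median gene tested had 11 UMIs.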
